A study of Mus musculus with 12 samples.

Results

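The transcripts of 9 genes used as markers of group 3 innate lymphoid cells (ILC3) and lymphoid tissue inducer cells, Ncr1, Ahr, Kit, Cxcr6, Ccr6, Il1r1, Il7r, Id2 and Ltb, were followed in the terminal ileum of 12 mice. The genes were picked by symbol from the 23284 genes of the count table, all 9 were found there, and all 9 passed the filter on low counts. RNA was sequenced from 3 mice in each of 4 groups, 1 library per mouse. The groups were Rag1-/- mice, in which T and B cells do not mature, Tcra-/- mice co-housed with wild type mice for 4 to 8 weeks, Tcra-/- mice housed separately, and wild type C57BL/6 mice. Without the T cell receptor alpha chain, Tcra-/- mice make no conventional T cells but keep B cells and gamma delta T cells. Taconic supplied all strains, and the facility was specific pathogen free. For the co-housed mice the labels name age-matched male wild type cage mates; ages, the sex of the other mice, the number of cages and whether the sequenced wild type mice were those cage mates are not given. Mice of 1 cage are not independent replicates of housing, so the tests of housing measure spread among mice. Values of single mice are given in the order of their label numbers, which are RAG1x3163, RAG1x3164 and RAG1x3168, TCRaCox3155, TCRaCox3156 and TCRaCox3157, TCRaSepxT2, TCRaSepxT3 and TCRaSepxT4, and WTB6x3159, WTB6x3160 and WTB6x3167.

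ILC3 are lymphocytes without rearranged antigen receptors that sit in the gut wall and make interleukin-22 and interleukin-17 when myeloid cells give interleukin-23 and interleukin-1. Interleukin-22 acts on the epithelium, where it raises antimicrobial proteins, and lymphotoxin from the lymphoid tissue inducer subset starts the formation of lymph nodes and Peyer's patches. None of the 9 genes is private to ILC3. Ltb, Il7r, Cxcr6 and Ccr6 are also expressed by T cells, Ltb and Ccr6 by B cells, Ncr1 by natural killer (NK) cells and ILC1, Kit by mast cells and the pacemaker cells of the gut muscle (interstitial cells of Cajal), and Ahr, Il1r1 and Id2 by epithelial or stromal cells.

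Total counts ran from 37061276 to 50581616 per library. Rag1 itself had 236 reads in the Rag1-/- libraries (mean 1.81 CPM, reads scaled to a common library size) and 0 in the other 9 libraries; which part of the gene was deleted is not given, so these reads do not check the label. B cell markers followed it, with a summed level of 3.03 to 4.26 CPM in Rag1-/- mice, against 168 to 207 CPM in wild type mice. Tcra is not a row of the table. In the coordinates of the table (mm9) Ncr1 lies on chr7:4289326-4296766, Ahr on chr12:36182651-36219661, Kit on chr5:75971012-76052746, Cxcr6 on chr9:123715595-123720872, Ccr6 on chr17:8428908-8449994, Il1r1 on chr1:40281925-40373022, Il7r on chr15:9435914-9459631, Id2 on chr12:25778664-25780957 and Ltb on chr17:35331452-35333250. Ahr, Il7r and Id2 are on the minus strand. None of the 9 shares exonic bases with another gene of the table.

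Promoters of 3 of the genes are shown because Ltb and Cxcr6 were called in the same direction as each other in both comparisons of the study's design, and Id2 in another direction in 1 of them. Each is the 250 bases before the annotated start, 5′ to 3′ on the gene's strand, from RefSeq on GRCm38.p6, so these positions are not on the build of the counts. A pair of short motifs was searched on both strands, the NF-kB core GGGNNNNNCC and the aryl hydrocarbon receptor core GCGTG, and matches are in capitals. The table of RefSeq promoters held 8 of the 9 genes, 4 of them with 1 start site.
Ltb, chr17:35194257-35194506, plus strand: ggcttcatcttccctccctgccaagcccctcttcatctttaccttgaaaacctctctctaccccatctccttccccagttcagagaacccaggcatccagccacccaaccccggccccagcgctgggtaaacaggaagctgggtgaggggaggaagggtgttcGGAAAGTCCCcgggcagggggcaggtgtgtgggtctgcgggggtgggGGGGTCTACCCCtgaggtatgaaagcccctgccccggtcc
Cxcr6, chr9:123806227-123806476, plus strand: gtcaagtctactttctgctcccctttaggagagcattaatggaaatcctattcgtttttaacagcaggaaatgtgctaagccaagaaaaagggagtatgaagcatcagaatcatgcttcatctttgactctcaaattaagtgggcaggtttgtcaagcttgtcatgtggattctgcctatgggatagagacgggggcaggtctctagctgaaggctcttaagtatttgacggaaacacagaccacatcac
Id2, chr12:25096093-25096342, minus strand: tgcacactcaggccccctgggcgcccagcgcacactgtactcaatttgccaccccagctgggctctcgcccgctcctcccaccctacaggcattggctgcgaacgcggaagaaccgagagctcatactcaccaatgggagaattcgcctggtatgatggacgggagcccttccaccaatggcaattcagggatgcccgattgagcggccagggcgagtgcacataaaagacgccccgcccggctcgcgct
Ltb held 4 matches to the NF-kB core, in 2 separate stretches. GGAAAGTCCC is 1 match, and GGGGTCTACCCC holds the other 3, which overlap one another. Cxcr6 and Id2 held no match to either motif in this window. Among 32851 promoter windows of this length, 45.8% held the NF-kB core and 28.2% the aryl hydrocarbon receptor core. A match to these letters is a description and not a binding site.

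Per kilobase of merged exon, Id2 had the highest level of the 9 genes in wild type ileum at 36.6 CPM per kb, followed by Ltb at 8.69, Kit at 3.91 and Cxcr6 at 2.78 CPM per kb. Ahr had 2.28, Il7r 2.15, Ccr6 1.85 and Il1r1 1.63 CPM per kb. Ncr1 had the lowest level, 0.179 CPM per kb. The 3 wild type libraries together held 35 Ncr1 reads, so its values carry the most counting error of the 9.

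In Rag1-/- ileum, 4 of the 9 genes were lower than in wild type ileum (Ltb, Ccr6, Cxcr6 and Id2) and 1 was higher (Ncr1), at an adjusted p under 0.01 in edgeR's quasi-likelihood test. In 8 of the 9 the mice of both groups did not overlap, as in 45.7% of all genes tested. Over all 15866 genes tested, 20.9% were called in this comparison, 9.42% higher and 11.5% lower. The median log2 fold change of the 9 genes was -0.91, against -0.02 over all genes. In co-housed against separately housed Tcra-/- ileum, 3 of the 9 were higher (Cxcr6, Ltb and Il1r1) and 2 were lower (Id2 and Kit), in a comparison where 38.8% of all genes were called, 21.1% higher and 17.7% lower. In 6 of the 9 the mice did not overlap, as in 57.9% of all genes. The median of the 9 was 0.66 there, against -0.01 over all genes. These are bulk samples, in which fewer cells of a type and less RNA per cell cannot be told apart.

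**Figure D1:**
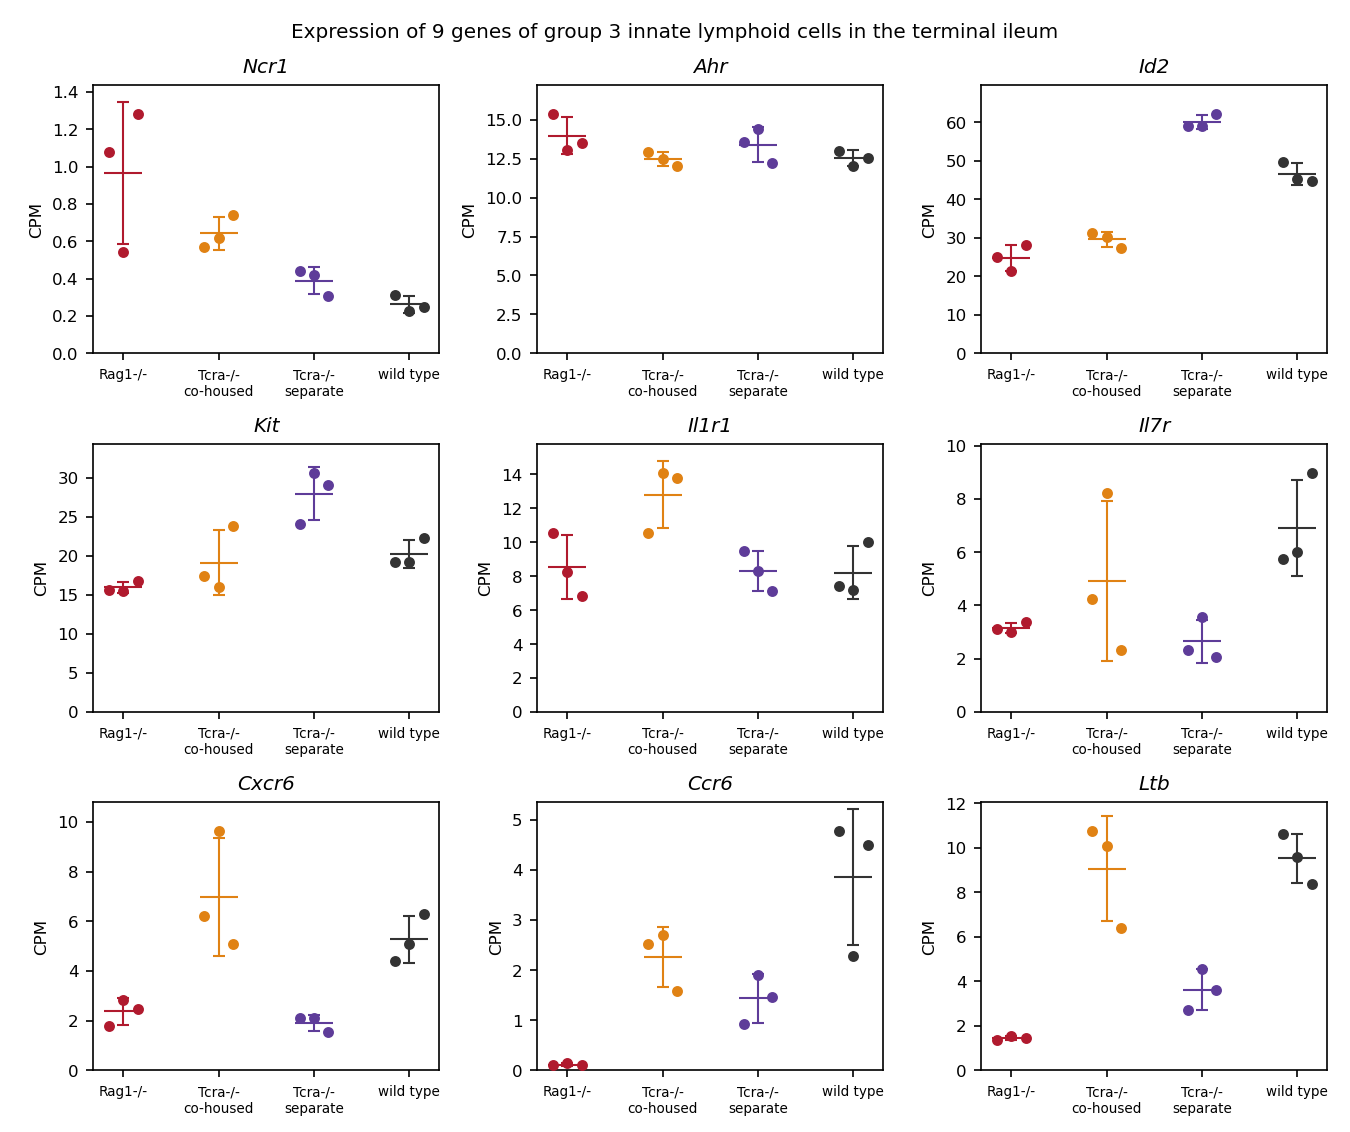
CPM of each of the 9 genes in each mouse (points), with the group mean and SD (bars; n = 3 mice per group), for Rag1-/-, co-housed Tcra-/-, separately housed Tcra-/- and wild type mice. Ltb and Ccr6 are lowest in the 3 Rag1-/- mice, Id2 is highest in the 3 separately housed Tcra-/- mice, and Ahr lies between 12.03 and 15.4 CPM in all 12 mice.

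**Figure D2:**
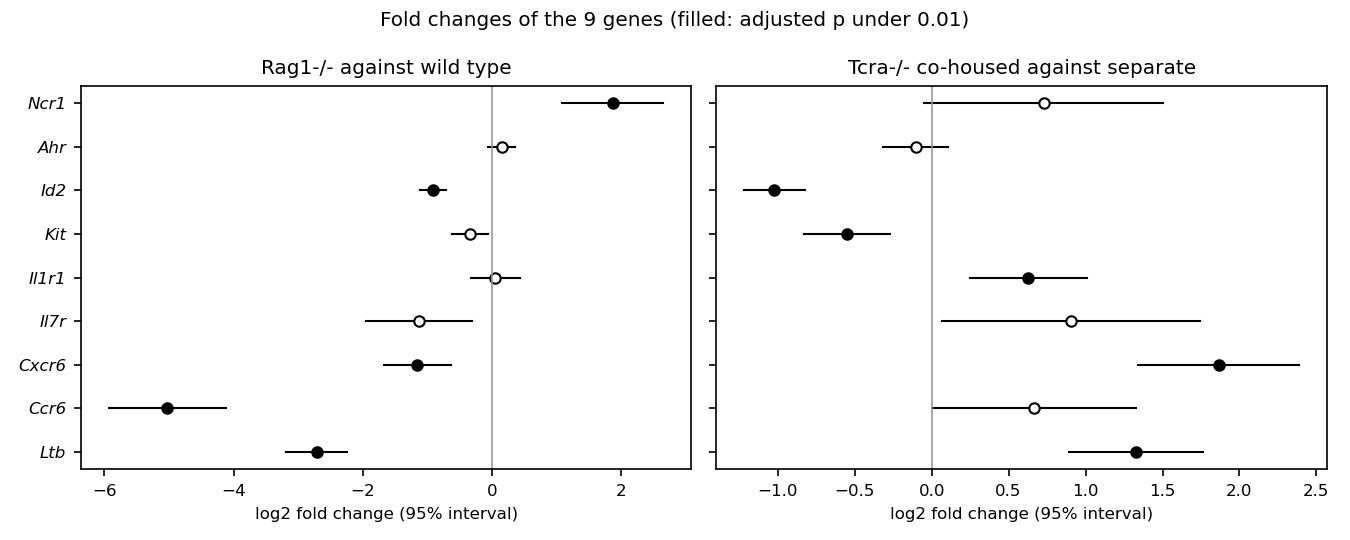
Log2 fold change of the 9 genes with its 95% interval (edgeR) for Rag1-/- over wild type and for co-housed over separately housed Tcra-/- mice; a value above 0 is higher in the Rag1-/- or in the co-housed mice, and filled points have an adjusted p under 0.01. Ltb and Cxcr6 lie below 0 in the first comparison and above 0 in the second, and Id2 lies below 0 in both.

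Id2 encodes an inhibitor of E-protein transcription factors that every innate lymphoid lineage requires. It had 25.1, 21.3 and 28.1 CPM in Rag1-/- mice, against 49.7, 45.3 and 44.6 CPM in wild type mice. All 3 Rag1-/- mice were below all 3 wild type mice, and the level fell 1.87-fold (log2 fold change -0.91, SE 0.09, edgeR adjusted p = 1.9e-06). Co-housed Tcra-/- mice had 31.2, 30.1 and 27.4 CPM, against 59.0, 59.1 and 62.1 CPM in separately housed Tcra-/- mice. Again the groups did not overlap, and Id2 was 2.03-fold lower in the co-housed mice (-1.02, SE 0.09, edgeR adjusted p = 2.4e-07). In order of level, separately housed Tcra-/- mice were highest, then wild type, then co-housed, then Rag1-/- mice. The first and second of these differed, with Id2 0.37 higher on the log2 scale in separately housed Tcra-/- than in wild type mice (SE 0.09, edgeR adjusted p = 0.0077), although this call was lost whichever of the 6 mice was left out (adjusted p 0.011 to 0.034). Co-housed Tcra-/- mice were below wild type mice (-0.65, SE 0.09, edgeR adjusted p = 7.0e-05), and Rag1-/- mice were not distinguished from co-housed Tcra-/- mice (-0.25, edgeR adjusted p = 0.145). Of 5 genes that act with Id2, the related inhibitor Id1 was higher in Rag1-/- than in wild type mice (0.56, edgeR adjusted p = 0.0051) and in co-housed than in separately housed Tcra-/- mice (0.57, edgeR adjusted p = 0.0025), opposite in sign to Id2. The E protein Tcf4 was higher by 0.39 in the co-housed mice, and Tcf3, Tcf12 and Id3 were not called in either comparison. Over all genes tested, 9.42% were higher in Rag1-/- against wild type mice and 21.1% with co-housing.

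Ahr encodes the aryl hydrocarbon receptor, a ligand-activated transcription factor that maintains ILC3 and intraepithelial lymphocytes and is fed by dietary and microbial ligands. Its level was 15.4, 13.1 and 13.5 CPM in Rag1-/- mice, against 13.0, 12.03 and 12.6 CPM in wild type mice. It was 12.9, 12.5 and 12.1 CPM in co-housed Tcra-/- mice, against 13.6, 14.4 and 12.2 CPM in separately housed Tcra-/- mice. The lowest Rag1-/- mouse lay just above the highest wild type mouse, and the housing groups overlapped. Ahr was called in none of the 6 pairs of groups. The log2 fold change was 0.16 for Rag1-/- over wild type mice (95% interval -0.06 to 0.37) and -0.10 for co-housed over separately housed mice (-0.32 to 0.11). Cyp1a1, a detoxifying enzyme and the best known target of the receptor, did change with housing. It had 1.69, 0.823 and 0.594 CPM in co-housed Tcra-/- mice, against 8.58, 6.85 and 10.2 CPM in separately housed Tcra-/- mice, with no overlap (-3.07, SE 0.40, edgeR adjusted p = 2.9e-05). Separately housed Tcra-/- mice were also above wild type mice, which had 2.23, 2.88 and 1.25 CPM (2.01, edgeR adjusted p = 0.0015). Rag1-/- mice, with 0.735, 0.332 and 0.960 CPM, were below the wild type values, and the difference missed the threshold (-1.63, SE 0.43, edgeR adjusted p = 0.0102). Of the 7 Ahr partners and targets listed, Cyp1a1 and the dimer partner Arnt (-0.23) were lower with co-housing and none was called in Rag1-/- against wild type mice, including the repressor Ahrr and the targets Cyp1b1, Tiparp and Nqo1. Over all genes tested, 17.7% were lower with co-housing and 20.9% were called in Rag1-/- against wild type mice.

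Ncr1 encodes NKp46, an activating receptor of NK cells, ILC1 and a subset of ILC3. It had 1.08, 0.545 and 1.28 CPM in Rag1-/- mice, against 0.315, 0.227 and 0.246 CPM in wild type mice, or 127 reads against 35. Every Rag1-/- mouse was above every wild type mouse, and Ncr1 was 3.67-fold higher (1.87, SE 0.37, edgeR adjusted p = 0.0010). Tcra-/- mice had 0.571, 0.617 and 0.743 CPM when co-housed, against 0.439, 0.419 and 0.306 CPM when housed separately. The mice of the 2 housing groups did not overlap, but the difference was not called (0.73, 95% interval -0.05 to 1.51, edgeR adjusted p = 0.108). The order of levels was Rag1-/-, co-housed, separately housed and wild type, and no neighbours in that order differed by the test. Rag1-/- mice were above separately housed Tcra-/- mice (1.32, edgeR adjusted p = 0.0057), a call that was lost without mouse RAG1x3163, RAG1x3168 or any of the 3 separately housed mice (adjusted p 0.013 to 0.038) and with scaling by library size alone (0.0126). NKp46 signals through Fcer1g and the CD3 zeta chain encoded by Cd247. Cd247 was lower in Rag1-/- than in wild type mice (-5.55) and higher in co-housed than in separately housed mice (2.08). Fcer1g was called in the housing comparison (0.94 higher in the co-housed mice) and not in Rag1-/- against wild type mice. Cd247 shares exonic bases with Pou2f1 on the opposite strand, so some of its reads may belong there.

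Kit encodes the receptor for stem cell factor and marks lymphoid tissue inducer cells as well as mast cells and interstitial cells of Cajal. Its level was 15.7, 15.5 and 16.8 CPM in Rag1-/- mice, against 19.2, 19.2 and 22.3 CPM in wild type mice. The groups did not overlap, but the difference was not called (-0.34, SE 0.13, edgeR adjusted p = 0.062); with scaling by library size alone it was (-0.51, adjusted p = 0.0050). With co-housing Tcra-/- mice had 17.5, 16.1 and 23.8 CPM, against 24.1, 30.7 and 29.1 CPM in separately housed Tcra-/- mice. The highest co-housed mouse lay just under the lowest separately housed one, and Kit was called lower (-0.55, SE 0.13, edgeR adjusted p = 0.0024). That call was lost in the fit of the 6 libraries alone (0.0111) and without TCRaCox3155, TCRaCox3156, TCRaSepxT3 or TCRaSepxT4 (adjusted p 0.012 to 0.017). From the highest level down the groups ran separately housed, wild type, co-housed and Rag1-/-, with no neighbours distinguished, while Rag1-/- mice were below separately housed mice (-0.81, edgeR adjusted p = 0.00011). Its ligand, encoded by Kitl, was called in neither comparison of the design.

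Markers of the other Kit-expressing cells were measured beside it. The 11 mast cell genes summed to 9.20 to 19.3 CPM in Rag1-/- mice, 6.73 to 18.8 in co-housed, 0.875 to 8.69 in separately housed and 5.77 to 14.2 in wild type mice. Tpsab1 was at 0 in all groups and Cma1 at 0 in Rag1-/- mice. Of the 7 tested, 0 were called in Rag1-/- against wild type mice, and 1, Hdc, was higher with co-housing, opposite to Kit. The 4 genes of interstitial cells of Cajal summed to 23.4 to 26.1 CPM in Rag1-/- mice, 22.5 to 26.8 in co-housed, 25.9 to 31.6 in separately housed and 14.5 to 19.1 in wild type mice. The chloride channel gene Ano1 was 0.66 higher than in wild type mice both in Rag1-/- and in separately housed Tcra-/- mice (edgeR adjusted p = 0.00067 and 0.0012), and 1 of the 4 was lower with co-housing. Ano1 had 13.4 to 17.4 CPM in co-housed Tcra-/- mice, which also did not overlap the wild type mice (9.11 to 11.5 CPM). With co-housing, 21.1% of all genes tested were higher and 17.7% lower. The part of either cell type in the Kit values was not tested.

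Il1r1 encodes the signalling receptor for interleukin-1, which with interleukin-23 drives ILC3 to make cytokines. It had 10.5, 8.25 and 6.83 CPM in Rag1-/- mice, against 7.40, 7.21 and 10.0 CPM in wild type mice. These groups overlapped and did not differ by the test (0.05, 95% interval -0.33 to 0.43). In co-housed Tcra-/- mice Il1r1 had 10.5, 14.1 and 13.8 CPM, against 9.48, 8.29 and 7.11 CPM in separately housed Tcra-/- mice. All 3 co-housed mice were above all 3 separately housed mice, and Il1r1 was called 1.55-fold higher (0.63, SE 0.18, edgeR adjusted p = 0.0076). The call was lost without TCRaCox3156, TCRaCox3157, TCRaSepxT3 or TCRaSepxT4 (adjusted p 0.024 to 0.043) and with scaling by library size alone (0.0303). The co-housed mice had the highest mean, and Rag1-/-, separately housed and wild type mice had means between 8.22 and 8.54 CPM. Among 5 ligands, antagonists and co-receptors, Il1b alone was called in these comparisons, 1.76 higher in co-housed than in separately housed mice (edgeR adjusted p = 0.00036), while Il1a, Il1rn, Il1rap and Il1r2 were not. Over all genes tested, 20.9% were called in Rag1-/- against wild type mice and 38.8% with co-housing.

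Il7r encodes the alpha chain of the interleukin-7 receptor, a survival receptor of innate lymphoid cells and T cells. It had 3.11, 2.99 and 3.37 CPM in Rag1-/- mice, against 5.74, 6.01 and 8.99 CPM in wild type mice. The 3 Rag1-/- mice lay close together and below every wild type mouse, yet the difference missed the threshold (-1.13, SE 0.37, edgeR adjusted p = 0.038). It was past the threshold in DESeq2 (0.0040) and in edgeR on the 6 libraries alone (0.00068). Co-housed Tcra-/- mice varied most, with 4.23, 8.23 and 2.33 CPM, against 2.33, 3.56 and 2.06 CPM in separately housed Tcra-/- mice. These groups overlapped (0.90, SE 0.38, edgeR adjusted p = 0.068), and the difference was 0.32 without the highest mouse TCRaCox3156 (adjusted p = 0.404) and 1.25 without TCRaCox3157 (adjusted p = 0.0029). The order of levels was wild type, co-housed, Rag1-/- and separately housed, with no neighbours distinguished.

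Of 4 genes that act with the receptor, 1 was called in Rag1-/- against wild type mice and 3 were called with co-housing. Among all genes tested, 20.9% and 38.8% were called in these comparisons. Il7, the ligand, had 5.57, 5.56 and 5.89 CPM in co-housed Tcra-/- mice, against 3.47, 3.96 and 3.35 CPM in separately housed Tcra-/- mice (0.66, SE 0.13, edgeR adjusted p = 0.00053). It was also lower in separately housed Tcra-/- than in wild type mice (-0.90, edgeR adjusted p = 0.00012) and was not called in Rag1-/- against wild type mice (0.17). Il2rg, the common gamma chain shared with other interleukin receptors, had 4.65, 4.88 and 5.29 CPM in Rag1-/- mice, against 16.8, 17.7 and 23.7 CPM in wild type mice (-1.97, edgeR adjusted p = 2.4e-05). It was 1.73 higher in co-housed than in separately housed mice (edgeR adjusted p = 3.0e-05). Crlf2, which pairs with the same alpha chain to bind thymic stromal lymphopoietin, was 1.25 higher with co-housing (edgeR adjusted p = 2.4e-06), and Tslp itself was not called.

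**Figure D3:**
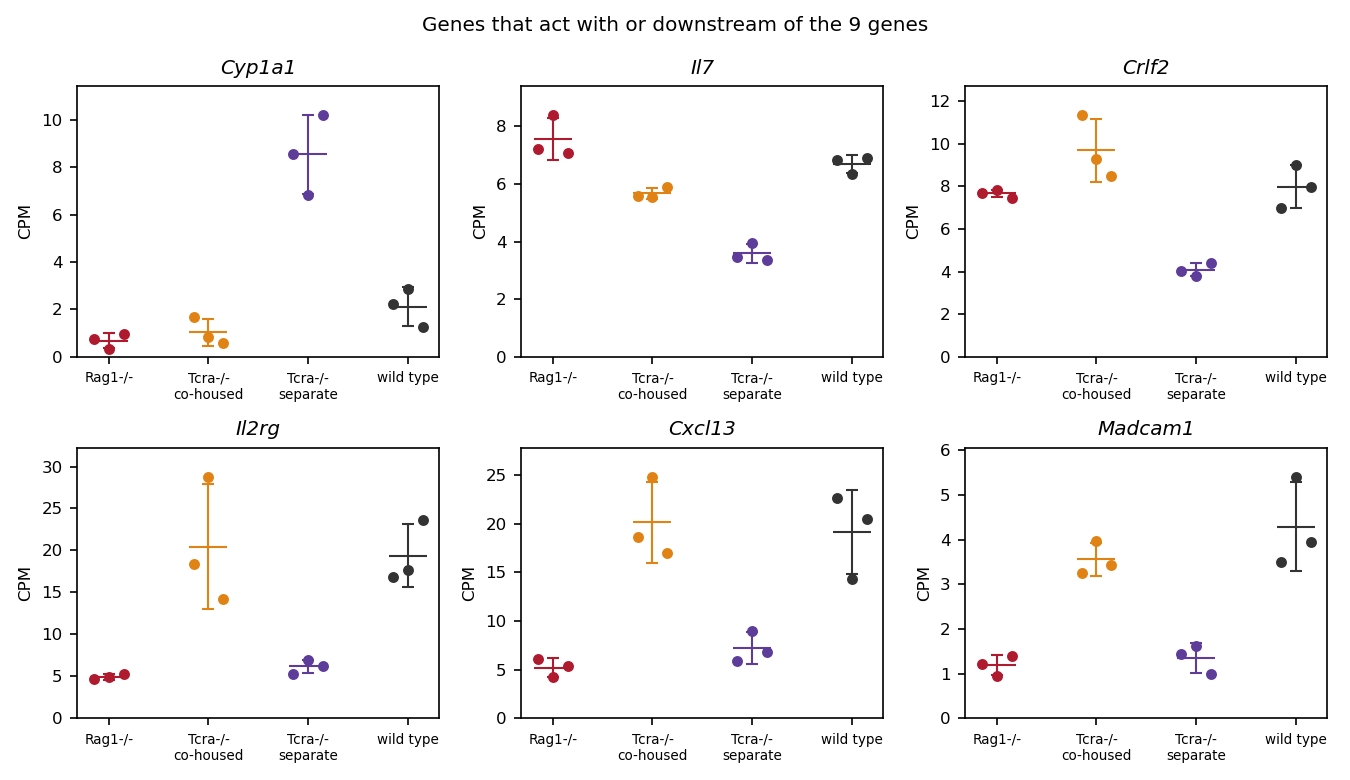
CPM in each mouse (points), with group mean and SD (bars; n = 3 mice per group), of Cyp1a1, Il7, Crlf2, Il2rg, Cxcl13 and Madcam1, which act with or downstream of the 9 genes. Cyp1a1 is highest in the separately housed Tcra-/- mice, and Il2rg, Cxcl13 and Madcam1 are higher in the co-housed Tcra-/- and wild type mice than in the other mice.

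Cxcr6 encodes the receptor for the chemokine Cxcl16 and is carried by ILC3, NK cells and tissue T cells. It had 1.79, 2.84 and 2.48 CPM in Rag1-/- mice, against 4.41, 5.10 and 6.31 CPM in wild type mice. The groups did not overlap and Cxcr6 was 2.22-fold lower (-1.15, SE 0.24, edgeR adjusted p = 0.0017), with an adjusted p of 0.0115 without RAG1x3163. The co-housed Tcra-/- mice had 6.20, 9.63 and 5.10 CPM, against 2.11, 2.10 and 1.55 CPM in separately housed Tcra-/- mice. The lowest co-housed mouse was above the highest separately housed mouse, and Cxcr6 was 3.64-fold higher (1.86, SE 0.25, edgeR adjusted p = 1.3e-05). Co-housed and wild type mice formed the upper pair of groups and were not distinguished (0.41, 95% interval -0.08 to 0.89), nor were Rag1-/- and separately housed mice, the lower pair (0.31, -0.24 to 0.85). Its ligand Cxcl16 was called in neither comparison of the design (-0.31 for Rag1-/- over wild type and -0.13 for co-housed over separately housed mice).

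Ccr6 encodes the receptor for Ccl20 and marks lymphoid tissue inducer cells, B cells and interleukin-17 producing T cells. Only 4, 6 and 5 reads were counted in the Rag1-/- mice, which is 0.0980, 0.142 and 0.107 CPM, against 4.77, 2.29 and 4.49 CPM in wild type mice. The fold change was the largest of the 9 genes in this comparison, 32.5-fold lower (-5.02, SE 0.43, edgeR adjusted p = 3.1e-07). Tcra-/- mice had 2.51, 2.70 and 1.58 CPM when co-housed, against 0.922, 1.91 and 1.47 CPM when housed separately. One co-housed mouse, TCRaCox3157, lay within the range of the separately housed mice, and the difference was not called (0.66, SE 0.31, edgeR adjusted p = 0.089). The levels ran from wild type through co-housed and separately housed to Rag1-/- mice. Among neighbours the test set apart separately housed and Rag1-/- mice (-3.60 for Rag1-/- over separately housed, edgeR adjusted p = 9.5e-06). Separately housed Tcra-/- mice were below wild type mice (-1.43, SE 0.31, edgeR adjusted p = 0.0030), a call lost without TCRaSepxT2, TCRaSepxT4, WTB6x3159 or WTB6x3167 (adjusted p 0.015 to 0.017). The ligand gene Ccl20 was not called and ranged from 2.88 to 12.4 CPM among Rag1-/- mice.

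Ltb encodes lymphotoxin beta, the membrane partner of lymphotoxin alpha in the signal by which lymphoid tissue inducer cells and B cells organise lymphoid tissue. It had 1.35, 1.54 and 1.47 CPM in Rag1-/- mice, against 10.6, 9.56 and 8.38 CPM in wild type mice. Rag1-/- mice were uniformly low, and Ltb was 6.53-fold lower (-2.71, SE 0.22, edgeR adjusted p = 1.9e-07). Tcra-/- mice co-housed with wild type had 10.7, 10.1 and 6.39 CPM, against 2.70, 4.54 and 3.59 CPM in separately housed Tcra-/- mice. The groups did not overlap and Ltb was 2.51-fold higher in the co-housed mice (1.33, SE 0.20, edgeR adjusted p = 5.2e-05). Co-housed and wild type mice were not distinguished (-0.07, 95% interval -0.48 to 0.34). Below them, separately housed mice differed from co-housed mice as stated, and Rag1-/- mice differed from separately housed mice (-1.31, SE 0.23, edgeR adjusted p = 0.00019).

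Genes of the lymphotoxin pathway were read beside Ltb. Of 10 listed, 8 were tested, of which 6 were lower in Rag1-/- than in wild type mice and 0 higher; Ccl19 had no reads and Ccl21a, which overlaps Gm1987, was under the filter. Lta, the soluble partner, was lower (-2.70, edgeR adjusted p = 0.00017), with 19 reads in Rag1-/- and 129 in wild type mice. Cxcl13, the chemokine that draws B cells into follicles, had 6.05, 4.19 and 5.38 CPM in Rag1-/- mice, against 22.6, 14.3 and 20.5 CPM in wild type mice (-1.88, edgeR adjusted p = 1.6e-05). Madcam1, a vascular address for gut homing lymphocytes, was also lower (-1.85, edgeR adjusted p = 1.6e-05). Tnfsf14, a second ligand of the lymphotoxin beta receptor, was lower (-1.60), as were the NF-kB genes Relb (-0.51) and Map3k14 (-0.52). In co-housed against separately housed Tcra-/- mice, Cxcl13 (1.48) and Madcam1 (1.396) were higher, with edgeR adjusted p of 5.0e-05 and 0.00010. In that comparison Relb (-0.63) and Map3k14 (-0.45) were lower, opposite in sign to Ltb. The receptor gene Ltbr and Nfkb2 were called in neither comparison. Among all genes tested, 11.5% were lower in Rag1-/- than in wild type mice.

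Outside the 2 comparisons of the design, co-housed Tcra-/- mice differed from wild type mice at 1 of the 9 genes, Id2, where 18.5% of all genes were called, 9.34% higher and 9.19% lower. The mice did not overlap at 3 of the 9, as at 41.7% of all genes. Il1r1 (0.64, edgeR adjusted p = 0.0123) and Ncr1 (1.29, edgeR adjusted p = 0.0186) were higher in the co-housed mice and missed the threshold. Separately housed Tcra-/- mice differed from wild type mice at 4 of the 9, Cxcr6, Ccr6 and Ltb lower and Id2 higher, where 13.8% of all genes were called, 7.7% lower and 6.06% higher. There Ltb had a log2 fold change of -1.399 and Cxcr6 of -1.46. The mice did not overlap at 6 of the 9, as at 40.7% of all genes. Rag1-/- mice differed from co-housed Tcra-/- mice at 3 of the 9, Ltb, Ccr6 and Cxcr6, all lower (-2.64, -4.26 and -1.56), where 2.89% of all genes were called and 2.55% were lower. At 5 of the 9 these mice did not overlap, as at 22.7% of all genes. The Cxcr6 call had an adjusted p of 0.0106 in edgeR on the 6 libraries alone. Rag1-/- mice differed from separately housed Tcra-/- mice at 5 of the 9, Ncr1 higher and Kit, Ccr6, Id2 and Ltb lower, where 36.1% of all genes were called, 18% higher and 18.1% lower. Again 5 of the 9 showed no overlap, as did 60.1% of all genes. These comparisons share mice with one another and with those of the design, so their values are not independent.

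A list of 21 further ILC3 genes, 20 of them tested, was read beside the 9. In Rag1-/- against wild type mice 3 were higher (Il22, Nfil3 and Klrb1b) and 6 were lower, among them Tcf7, Batf, Runx3, Lta and Tnfsf11, with a list median of -0.18. In co-housed against separately housed Tcra-/- mice 10 were higher, among them Il22, Il23r, Il12rb1 and Runx3, and 2 were lower, among them Tox (-0.83), with a list median of 0.80. Over all genes tested, 9.42% were higher and 11.5% lower in the first comparison, and 21.1% and 17.7% in the second. Like the 9 genes, many on this list are not private to ILC3, and Tcf7, Batf, Runx3, Lta and Tnfsf11 are also expressed by T or B cells. The part of other cells in their values was not tested. Il22 had 61, 98 and 55 reads in Rag1-/- mice, 73, 110 and 60 in co-housed Tcra-/- mice, 0 in each separately housed Tcra-/- mouse, and 6, 4 and 3 in wild type mice. Against a floor of 3 counts over the separately housed group, Il22 was at least 91.2-fold higher in co-housed mice and at least 73.7-fold higher in Rag1-/- mice. In Rag1-/- over wild type mice its log2 fold change was 4.05 (SE 0.43, edgeR adjusted p = 6.8e-06). Il17a, with 8 reads in Rag1-/-, 6 in co-housed, 0 in separately housed and 39 in wild type mice, was under the filter on low counts.

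Il23r, the receptor chain for interleukin-23, was 1.64 higher with co-housing (SE 0.37, edgeR adjusted p = 0.0016) and was not called in Rag1-/- against wild type mice (0.56, adjusted p = 0.285). Runx3 was lower in Rag1-/- than in wild type mice (-1.85) and higher in co-housed than in separately housed Tcra-/- mice (1.95).

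**Figure D4:**
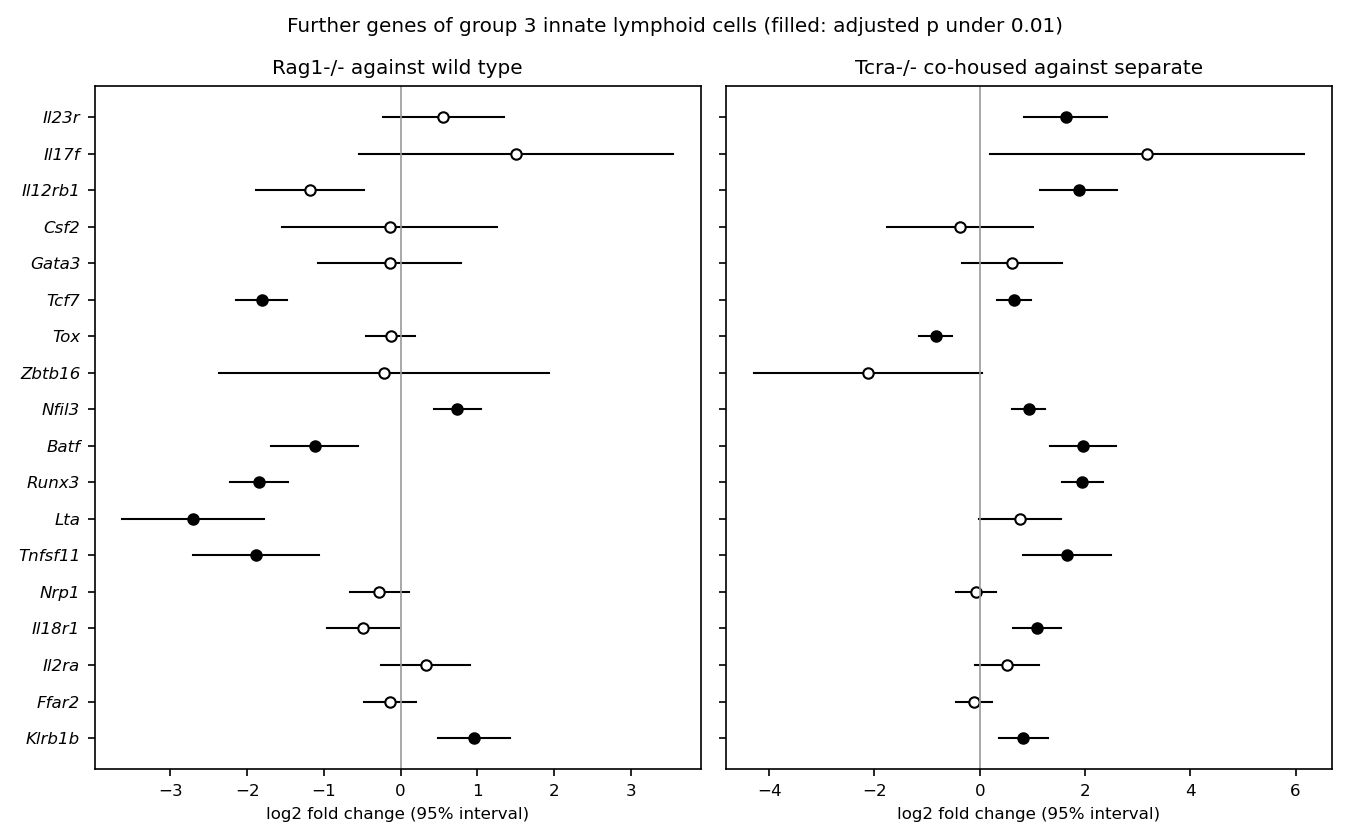
Log2 fold change with its 95% interval (edgeR) of further ILC3 genes, with Il22 and Il17a not plotted, for Rag1-/- over wild type and for co-housed over separately housed Tcra-/- mice (above 0: higher in the Rag1-/- or in the co-housed mice; filled points: adjusted p under 0.01). Nfil3 and Klrb1b lie above 0 in both, while Tcf7, Batf, Runx3 and Tnfsf11 lie below 0 in the first and above 0 in the second.

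Markers of other lymphocytes moved with several of the 9 genes. The 10 T cell genes summed to 6.76 to 9.80 CPM in Rag1-/- mice, 26.0 to 59.2 in co-housed, 10.7 to 11.6 in separately housed and 76.7 to 119 in wild type mice. All 10 were called lower in Rag1-/- against wild type mice and 8 of 10 higher with co-housing. Over all genes tested, 11.5% were lower in the first comparison and 21.1% higher in the second. The 9 B cell genes summed to 3.03 to 4.26 CPM in Rag1-/- mice, 118 to 172 in co-housed, 53.5 to 94.95 in separately housed and 168 to 207 in wild type mice. All 9 were lower in Rag1-/- against wild type mice, and 5 of 9 were higher with co-housing. The 10 NK cell and ILC1 genes summed to 42.4 to 58.9 CPM in Rag1-/- mice, 34.8 to 103 in co-housed, 6.89 to 9.39 in separately housed and 131 to 210 in wild type mice. Of these, 4 (Tbx21, Klrd1, Prf1 and Il2rb) were lower in Rag1-/- against wild type mice, where Ncr1 was higher, and 9 were higher with co-housing. Many genes of this list, those 4 among them, are also expressed by T cells. The part of T cells in these values was not tested, so they do not give the number of NK cells or ILC1. Gzma and Gzmb made up most of the wild type sum, with means of 118 and 43.6 CPM. In Rag1-/- mice they had 27.0 and 10.7 CPM, and neither was called (edgeR adjusted p = 0.0104 and 0.0186). The receptor genes Klrb1c (0.14) and Klrk1 (0.40) were not lower in Rag1-/- mice, while the means of the rest of the list were.

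The 5 genes of all leukocytes summed to 72.3 to 83.9 CPM in Rag1-/- mice, 177 to 286 in co-housed, 89.3 to 112 in separately housed and 289 to 334 in wild type mice. All 5 were lower in Rag1-/- against wild type mice, higher with co-housing, and lower in separately housed Tcra-/- against wild type mice. Those are the directions of Ltb and Cxcr6 in the same comparisons. Id2 was lower in Rag1-/- against wild type mice as well, but lower with co-housing and higher in separately housed Tcra-/- against wild type mice. Mouse TCRaCox3156 had the highest Il7r and Cxcr6 of the co-housed mice. Among them it also had the highest sums of the T cell, NK cell, ILC2, mast cell, myeloid and leukocyte lists. Its B cell sum was the highest too, but close to that of TCRaCox3155 (172 against 170 CPM). Of the 10 myeloid genes, 1 was higher in Rag1-/- against wild type mice and 8 were higher with co-housing. The 6 ILC2 genes, of which 4 were tested, summed to 12.6 to 23.3 CPM over all 12 mice, with 1 called lower in each comparison of the design. The 7 epithelial genes summed to 11364 to 13811 CPM over all 12 mice, with 2 called lower in Rag1-/- against wild type mice and 3 lower with co-housing. Of the 7 genes of stroma and muscle, 0 were called in Rag1-/- against wild type mice and 1 was lower with co-housing. Over all genes tested, 9.42% were higher and 11.5% lower in Rag1-/- against wild type mice, and 21.1% and 17.7% with co-housing. The part of these cell types in the values of the 9 genes was not tested.

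**Figure D5:**
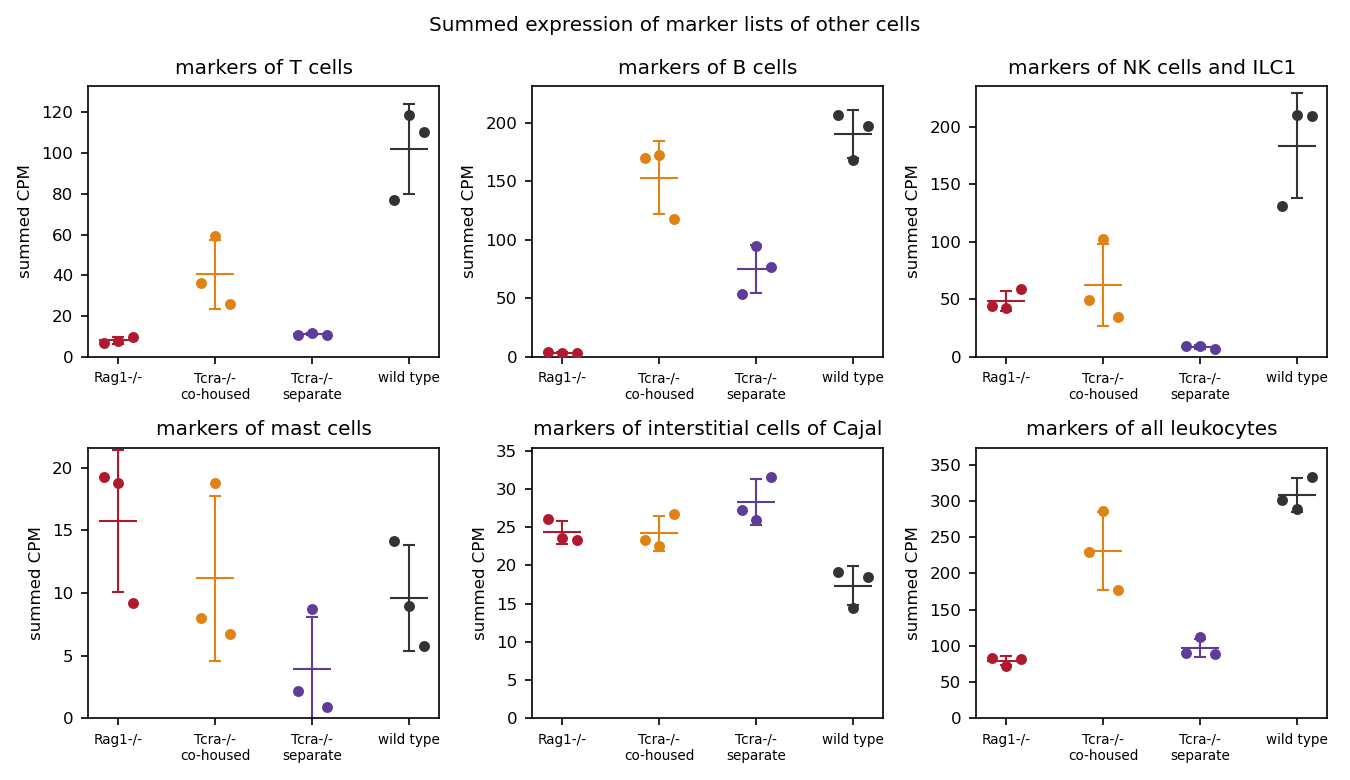
Summed CPM of the markers of T cells, B cells, NK cells and ILC1, mast cells, interstitial cells of Cajal and all leukocytes in each mouse (points), with group mean and SD (bars, lower end cut at 0; n = 3 mice per group). The leukocyte sum is 72.3 to 83.9 in Rag1-/- and 89.3 to 112 in separately housed Tcra-/- mice, and 177 or more in every co-housed and wild type mouse. In wild type mice the sum for NK cells and ILC1 is mostly Gzma and Gzmb.

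For 6 of the 9 genes the group means of log2 CPM spanned more than 1, and the genes whose pattern was most alike were found by the root mean square difference of centred log2 CPM over the 12 libraries. Ccr6 was closest to Cd22 (0.29), Bank1 (0.30) and Fcrl1 (0.31). Ltb was closest to H2-Oa (0.18), Acap1 (0.21) and Dock2 (0.22), and Cxcr6 to Sp140 (0.19), Fxyd5 (0.20) and Sla (0.23). Il7r was closest to Gpr65 (0.27), Gpr34 (0.30) and Cd4 (0.32). The nearest to Id2 were Lats2 (0.10), Mfsd7a (0.11) and Def8 (0.12), and the nearest to Ncr1 were Sprr2b (0.30), Paqr5 (0.31) and Psd3 (0.32). The 12 libraries fall into 4 groups, so a likeness reflects mainly the order of 4 group means.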

How the data were processed

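The submitters' processing notes name bcl2fastq, TopHat2 2.0.11, Bowtie2 2.2.2.0, featureCounts (Subread 1.4.5-p1), DESeq2 1.12.3 and the build mm9. The authors deposited raw read counts per gene, per the file headers. Annotation, strand setting and multi-mapping are not given in the sources. The RNA was Trizol-extracted and the libraries were stranded mRNA, per the labels' protocols.

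All 12 libraries were fitted in 1 model with edgeR 4.0.16 (R 4.3.3; filterByExpr, 15866 genes kept; TMM factors 0.926 to 1.07; robust quasi-likelihood, 8 residual degrees of freedom). Contrasts were two-sided, with Benjamini-Hochberg adjustment over all genes and calls under 0.01. SE is the log2 fold change over the square root of F. CPM uses the TMM-normalized library size, and CPM per kb the deposited merged exon length. Log2 CPM for likeness had a prior count of 2, and the 3 nearest genes of each member whose group means spanned over 1 were named. Floors and read counts cover counting error only. The model was also run on simulated counts, and the outcome of that run is not given here.

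The 9 genes, the lists and the rules were chosen with earlier results of these data known. A few genes of these lists are not reported here. Alternatives were DESeq2 1.42.0, other scalings and filters, the 6 libraries compared, no robust step and leaving out each mouse.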

Additional observations from a re-analysis of the deposited data

How the results depend on the processing

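No called change of the 9 genes reversed under any alternative run. Over 6 comparisons, 655 of the 9 genes' alternative values kept their side of the threshold, 29 lost it and 12 gained it; those in the comparisons of the design are given with the results. Ncr1 did not pass the filter of over 1 CPM in 3 libraries and has no value there.

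With DESeq2, members called in co-housed Tcra-/- against wild type mice were 2 in place of 1, and genes called in Rag1-/- against co-housed Tcra-/- mice were 838 in place of 459; on the 6 libraries alone that comparison gave 281. Leaving out 1 mouse at a time gave 297 to 569 genes there (297 without RAG1x3164, 304 without TCRaCox3156). It gave 3 to 5 members in co-housed against separately housed Tcra-/- mice, 1 to 2 in co-housed Tcra-/- against wild type mice, and 2 to 3 members with 1281 to 1735 genes in separately housed Tcra-/- against wild type mice (4 and 2182 with all mice). Il1r1 was the second member in co-housed Tcra-/- against wild type mice. The cause was not tested, beyond the fewer libraries in each such fit.

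Scaling by library size alone moved the median log2 fold change of all genes to -0.19 in Rag1-/- against wild type, -0.12 in co-housed against separately housed and -0.20 in Rag1-/- against separately housed mice. Genes called there were 713 higher and 3218 lower (1494 and 1820 with TMM), 2480 and 3695 (3347 and 2809), and 1709 and 4264 (2852 and 2869). In co-housed Tcra-/- against wild type mice the median was -0.12, with 795 higher and 2449 lower (1482 and 1458). No paired analysis was made because the labels give no pairing of mice between groups, such as a shared cage or litter.

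The number of mice, 3 per group, limits every test, and low counts limit Ncr1 and, in Rag1-/- mice, Ccr6.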
